A study of Mus musculus with 23 samples.

Results

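The 5 genes of the interleukin-12 (IL-12) cytokine family that are measured here are Il12a, Il12b, Il23a, Il27 and Ebi3. They were found by gene symbol among 47729 genes in RNA-seq libraries of dendritic cells (DCs), and all 5 were present in the table. The cells came from spleens of wild type Balb/C mice, either untreated or labelled TLI, a name that the labels do not expand and that commonly stands for total lymphoid irradiation. DC1a cells were gated as CD8hi CD172-, DC1b cells as CD8Int CD172+, DC2 cells as CD8lo CD172hi and DC3 cells as CD8- CD172lo, where CD172a is the surface protein encoded by Sirpa. Each untreated subset was sequenced from 2 pools of mice, and each TLI subset from 4 pools except DC2, which had 3. No age is given. Together these were 23 libraries in 8 groups. The untreated libraries and TLI pools 1 and 2 belonged to batch 1, and TLI pools 3 and 4 to batch 2.

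Cytokines of this family are secreted as dimers of a helical chain and a chain related to soluble cytokine receptors. IL-12 pairs p35 (Il12a) with p40 (Il12b), and IL-23 pairs p19 (Il23a) with the same p40. IL-27 pairs p28 (Il27) with EBI3 (Ebi3), and IL-35 has been described as a pairing of p35 with EBI3. In the spleen DCs are a known source of IL-12, which drives interferon gamma production by T and natural killer (NK) cells, and of IL-27, which can restrain as well as promote T cell responses. A transcript count of one chain therefore does not measure a cytokine, since both chains must be made in the same cell.

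On assembly GRCm38 Il12a (ENSMUSG00000027776) lay on chromosome 3 from 68690644 to 68698547 on the plus strand, and Il12b (ENSMUSG00000004296) on chromosome 11 from 44400063 to 44414033 on the plus strand. Il23a (ENSMUSG00000025383) lay on chromosome 10 from 128296139 to 128298752 on the minus strand. Neither these 3 genes nor their exons overlapped another annotated gene. Il27 (ENSMUSG00000044701), on chromosome 7 from 126589010 to 126594941 on the minus strand, shared exonic sequence with Apobr on the opposite strand. Ebi3 (ENSMUSG00000003206), on chromosome 17 from 55952640 to 55957022 on the plus strand, shared exonic sequence with Gm16712 on the opposite strand. The library kit does not mark strand, so the reads of these 2 pairs cannot be told apart where they overlap. Gm16712 stayed between 0 and 6.33 CPM (reads scaled to the library total and TMM factor) in the 23 libraries. Apobr ranged from 2.91 to 47.2 CPM, and in the TLI DC3 libraries it had 15.6 to 33.9 CPM where Il27 had none.

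The windows around the annotated starts are shown because transcription of these genes is known to respond to nuclear factor kappaB, interferon regulatory factors (IRFs), PU.1 and AP-1. RefSeq (GRCm38.p6) gave 4 windows of 300 bases for 3 of the 5 genes, each from 250 bases before a start to 50 bases after it, and Il12a has 2 of them. The search covered a loose kappaB motif (GGG, any 5 bases, then CC), the IRF letters GAAANNGAA, the PU.1 letters GAGGAAG and the AP-1 letters TGANTCA on both strands. Capitals mark the kappaB matches, the only motif of the 4 that was present in any of these windows.
Il12a, second start, plus strand, chr3:68691174-68691473: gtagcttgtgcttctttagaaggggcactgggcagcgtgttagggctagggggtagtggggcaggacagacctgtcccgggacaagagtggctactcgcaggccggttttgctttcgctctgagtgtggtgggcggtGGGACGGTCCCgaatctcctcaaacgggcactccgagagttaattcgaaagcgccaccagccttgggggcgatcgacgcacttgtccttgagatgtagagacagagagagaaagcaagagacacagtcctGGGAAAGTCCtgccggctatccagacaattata
Il12b, plus strand, chr11:44399813-44400112: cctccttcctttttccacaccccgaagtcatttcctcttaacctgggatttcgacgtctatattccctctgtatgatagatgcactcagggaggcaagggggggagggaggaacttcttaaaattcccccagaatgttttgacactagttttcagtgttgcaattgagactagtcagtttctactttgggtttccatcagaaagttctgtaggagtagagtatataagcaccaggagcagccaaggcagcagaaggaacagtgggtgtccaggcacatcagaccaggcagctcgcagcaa
Ebi3, plus strand, chr17:55952373-55952672: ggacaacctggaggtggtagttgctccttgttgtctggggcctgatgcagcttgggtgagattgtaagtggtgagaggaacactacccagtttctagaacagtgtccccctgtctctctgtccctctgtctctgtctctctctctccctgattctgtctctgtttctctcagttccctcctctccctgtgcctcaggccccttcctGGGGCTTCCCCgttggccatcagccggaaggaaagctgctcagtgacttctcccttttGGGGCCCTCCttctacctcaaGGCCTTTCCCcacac
The second Il12a window held 2 stretches with a kappaB match, the Ebi3 window held 3, and the Il12b window and the first Il12a window held 0. Of all 32851 windows 50.8% held a kappaB match, 8.56% an IRF match, 13.6% a PU.1 match and 7.81% an AP-1 match, so a kappaB match in a window of this length was common. A window without a match says only that these letters are not in it.

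Total counts per library lay between 19256447 and 36997890. A library's floor of detection was taken as 3 counts, which came to 0.0861 to 0.147 CPM after TMM scaling, and such floors cover counting error only because amplified reads are not independent molecules. The gate markers were checked by their transcripts. Cd8a was at 375 to 913 CPM in DC1a cells of either treatment, at 132 and 347 CPM in untreated DC1b cells, and at most 0.985 CPM in DC2 cells. However, Cd8a was at 0.363 CPM in the library labelled TLI DC1b of pool 4, against its CD8Int label, and at 37.9 CPM in the CD8- library of untreated DC3 cells of pool 2. Sirpa was at most 0.804 CPM in DC1a cells and was at 237 and 176 CPM in untreated DC2 cells. In TLI DC2 cells, labelled CD172hi, it was at 34.0, 8.78 and 281 CPM in pools 1, 3 and 4, and in TLI DC1b cells, labelled CD172+, at 162, 145, 5.51 and 7.26 CPM in pools 1 to 4. Sirpa of TLI DC2 pools 1 and 3 was thus below that of TLI DC1b pools 1 and 2, against the order of the labels. The 7 markers of CD8- classical DCs (cDC2), Sirpa among them, summed to 1021 to 1922 CPM in TLI DC2 and 149 to 579 CPM in TLI DC1b cells. Of these, Cd209a had 790 to 1589 and 95.3 to 326 CPM, while the means of Cd4 and Esam were lower in TLI DC2 cells. DC3 cells carried 2274 to 3198 CPM of the 8 markers of CD8+ classical DCs (cDC1) summed. Every DC3 library was below every DC1a library of the same treatment, which had 2910 and 3379 CPM in untreated and 3786 to 4512 CPM in TLI mice. Several groups held transcripts that serve as markers of other cell types. Whether the gated cells or admixed cells carried them was not tested. The 5 markers of plasmacytoid DCs (pDCs) summed to 2383 and 2743 CPM in untreated DC1b cells, against 25.8 to 201 CPM in the other 21 libraries. The 6 neutrophil markers summed to 1344 to 22779 CPM in TLI DC1b cells, and the 5 NK cell markers to 2622 and 539 CPM in TLI DC3 cells of pools 1 and 2. The 4 erythroid markers summed to 11419 to 85904 CPM in the 7 TLI libraries of batch 1 and to 106 to 4550 CPM in the 8 of batch 2. The part of these transcripts in the results given here was not tested. In sorted bulk samples fewer producing cells and less RNA per cell cannot be told apart.

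Il12b, which encodes the p40 chain shared by IL-12 and IL-23, was above the floor in 19 of the 23 libraries and was highest in DC1a cells. Untreated DC1a cells had 105 and 116 CPM, and untreated DC2 cells had 44.9 and 36.3 CPM. Untreated DC1b cells had 30.8 CPM in pool 1 and 4.87 CPM in pool 2, and untreated DC3 cells had 3.83 and 0.142 CPM. The order from DC1a through DC2 and DC1b to DC3 was thus present in both untreated pools. No step of it passed the edgeR test described below. The adjusted p with edgeR were 0.595 for DC2 against DC1a, 0.764 for DC2 against DC1b and 0.425 for DC3 against DC1b cells. With 2 libraries per group, a lack of overlap between neighbours was not read as a result. In TLI mice DC1a cells had 258, 141, 34.3 and 13.2 CPM in pools 1 to 4, a wider spread than in the untreated duplicates. TLI DC1b cells had 27.2, 25.2, 14.3 and 2.41 CPM in pools 1 to 4, and overlapped with TLI DC1a cells. TLI DC2 cells had 14.7 CPM in pool 1, and 0 counts in pools 3 and 4. TLI DC3 cells had 0.343 and 1.39 CPM in pools 1 and 2, and 0 counts in pools 3 and 4. In both treatments, therefore, the DC1a libraries were above every DC3 library.

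Il12a, which encodes the p35 chain of IL-12, had a different distribution. It was above the floor in 5 of the 23 libraries, and 17 libraries had 0 counts. Untreated DC1b cells had 103 CPM in pool 1 and 81.6 CPM in pool 2, a mean of 92.5 ± 15.5 CPM (SD, n = 2). All 6 DC1a libraries had 0 counts, among them the 4 libraries with the most Il12b (105 to 258 CPM). Untreated DC2 cells had 2 and 0 counts. Untreated DC3 cells had 0 counts in pool 1 and 14 counts (0.499 CPM) in pool 2. Among the 15 TLI libraries only DC1b of pool 2 (13.6 CPM) and DC3 of pool 1 (15.4 CPM) were above the floor, and the others had 0 counts. The 2 libraries with the most Il12a were also the 2 with the most pDC marker transcripts, among them 981 and 1653 CPM of Siglech. The DC3 library of TLI pool 1 had the most NK cell transcripts, with 1151 CPM of Ncr1. It also had the most T cell (250 CPM) and erythroid marker transcripts (85904 CPM) of the 23 libraries. The DC3 library of TLI pool 2, second in NK cell markers (539 CPM), had 0 counts of Il12a. The part of these transcripts in Il12a was not tested.

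Il23a, which encodes the p19 chain of IL-23, was at or under the floor in all 23 libraries. It had 0 counts in 20 of them and at most 3 counts in any, which was 0.0898 CPM. At this depth no difference between groups was detectable, and Il23a passed the filter on low counts in none of the fits.

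**Figure D1:**
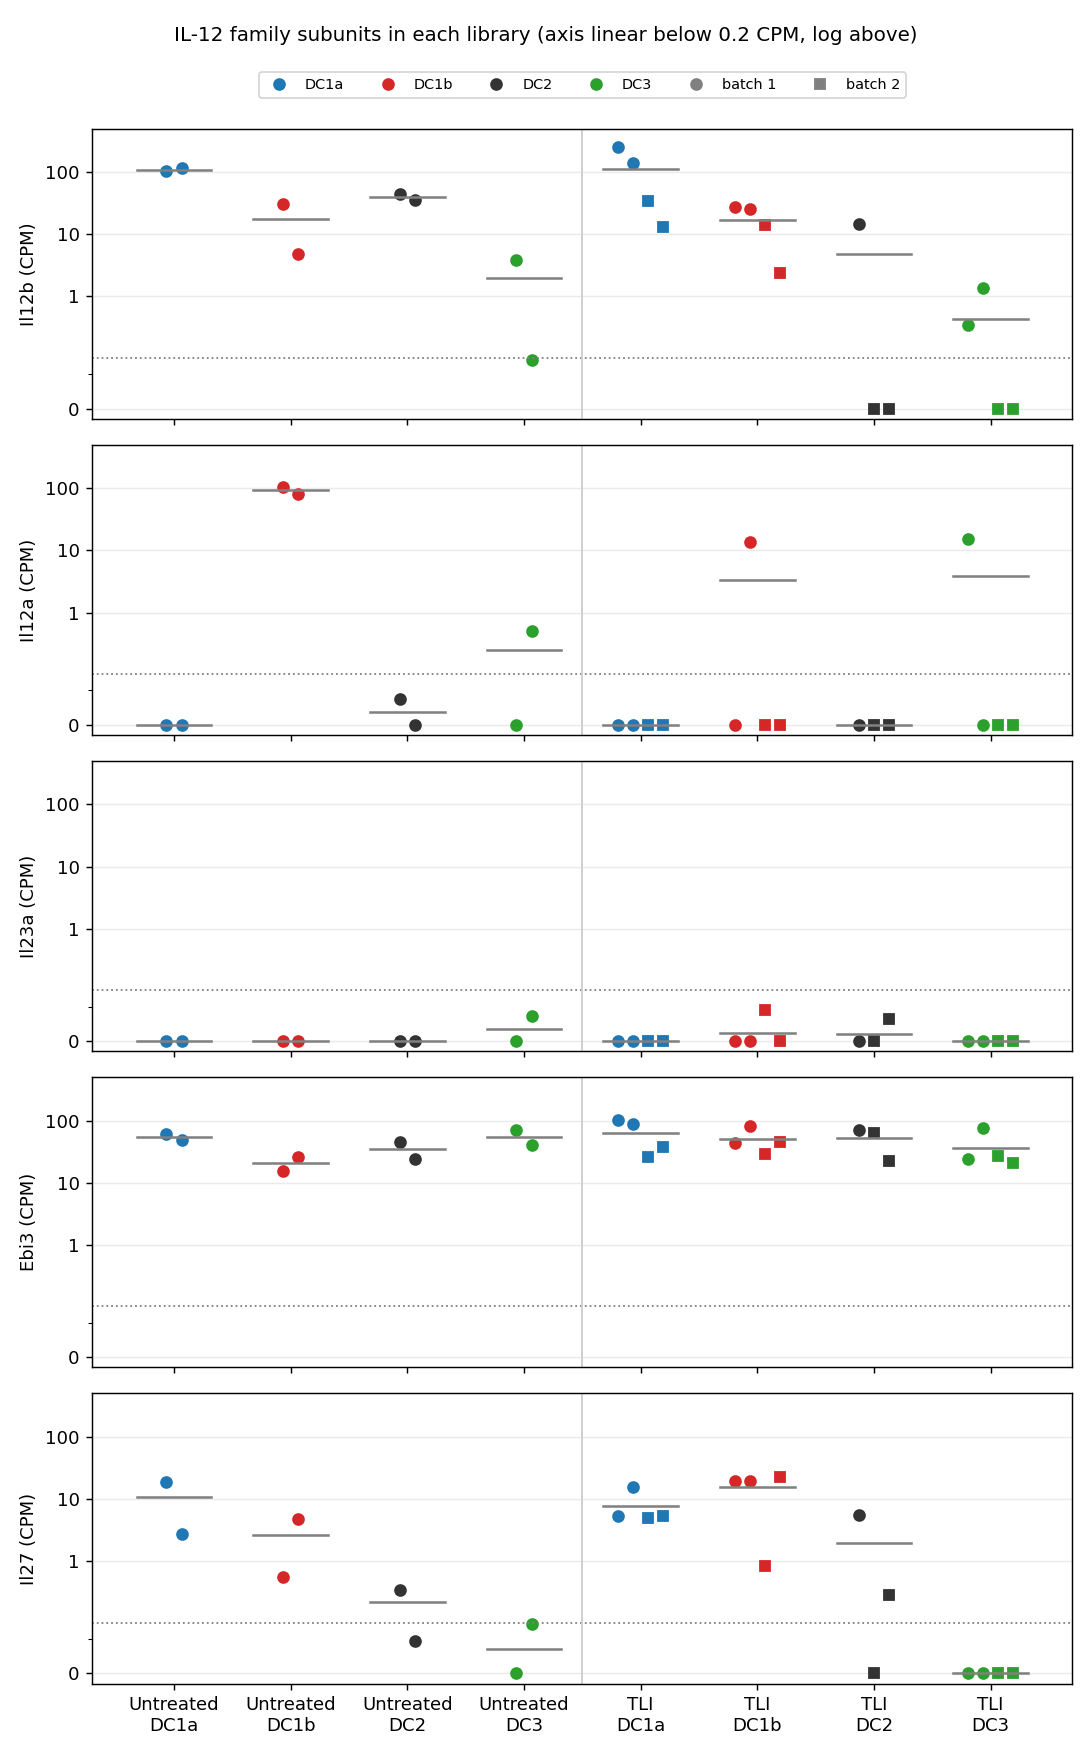
Level of each subunit gene in each library in TMM-scaled CPM, by group, with circles for batch 1, squares for batch 2, a grey bar for the group mean and a dotted line at the highest floor of any library (0.147 CPM). Il12a stands at 103 and 81.6 CPM in untreated DC1b cells, Il23a stays at or under 0.0898 CPM throughout, and Il12b of the TLI DC2 and DC3 libraries of batch 2 is at 0.

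Ebi3, which encodes the receptor-like chain of IL-27, was the only subunit above the floor in all 23 libraries. Untreated DC1a cells had 61.5 and 48.8 CPM, untreated DC3 cells had 69.9 and 40.3 CPM, and untreated DC2 cells had 44.5 and 24.4 CPM. Untreated DC1b cells had the lowest mean of the 8 groups, with 15.7 and 26.0 CPM. In TLI mice the means were 63.5 ± 36.8 CPM in DC1a cells (SD, n = 4), 49.9 ± 21.9 CPM in DC1b cells (SD, n = 4), 51.9 ± 25.8 CPM in DC2 cells (SD, n = 3) and 36.8 ± 25.9 CPM in DC3 cells (SD, n = 4). Each group overlapped with its neighbour in the order of means, and the levels over all libraries ranged from 15.7 to 101 CPM.

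Il27, which encodes the helical p28 chain, was above the floor in 16 libraries, mainly of DC1a and DC1b cells. Untreated DC1a cells had 18.3 and 2.75 CPM in pools 1 and 2, and untreated DC1b cells had 0.558 and 4.73 CPM. TLI DC1a cells had 5.30, 15.2, 4.89 and 5.21 CPM in pools 1 to 4, and TLI DC1b cells had 19.1, 19.5, 0.838 and 22.1 CPM. All 6 DC1a and all 6 DC1b libraries were thus above the floor, with wide spread inside each group. In DC2 cells Il27 was at 0.344 and 0.0934 CPM in untreated mice, and at 5.47, 0 and 0.282 CPM in TLI pools 1, 3 and 4. In DC3 cells it was at 0 and 0.142 CPM in untreated mice and had 0 counts in all 4 TLI libraries. The TLI DC2 library of pool 1, the highest of the DC2 libraries, had the most macrophage transcripts of that group (2345 CPM over 7 markers, against 172 and 244 CPM). Its neutrophil (2126 CPM), NK cell (146 CPM), T cell (68.1 CPM) and erythroid markers (27788 CPM) were also the highest there. It alone of that group was of batch 1, so these and batch cannot be told apart. Among TLI DC1b cells, pool 4 had the most Il27 and the fewest macrophage markers (217 CPM).

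The levels of partner chains can be compared only per length, so CPM were divided by kilobases (kb) of merged exons. Both chains of IL-12 were above the floor in 5 libraries. In untreated DC1b cells Il12a was at 60.8 and 47.9 CPM per kb and Il12b at 15.6 and 2.48 CPM per kb, so that Il12b was the lower chain, by 3.89 and 19.4 times. In TLI DC1b cells of pool 2 Il12a was the lower chain, at 0.625 times the level of Il12b. In TLI DC3 cells of pool 1 Il12a was 52.0 times Il12b, which was there at 7 counts. In DC1a cells Il12b reached 6.72 to 131 CPM per kb with no Il12a read in any library. Both chains of IL-23 were above the floor in 0 libraries.

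The chains of IL-27 were both above the floor in 16 libraries, and Il27 was the lower chain in each. The ratio of Il27 to Ebi3 per kb was 0.337 and 0.0637 in untreated DC1a cells and 0.0403 and 0.206 in untreated DC1b cells. In TLI DC1a cells it was 0.0591, 0.196, 0.210 and 0.154 in pools 1 to 4, and in TLI DC1b cells 0.493, 0.273, 0.0324 and 0.544. These ratios overlapped between DC1a and DC1b cells in both treatments. Il12a and Ebi3, the chains named for IL-35, were both above the floor in the same 5 libraries as the chains of IL-12. In untreated DC1b cells Il12a was there 4.48 and 2.13 times Ebi3 per kb, and in the other 3 libraries it was the lower chain.

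**Figure D2:**
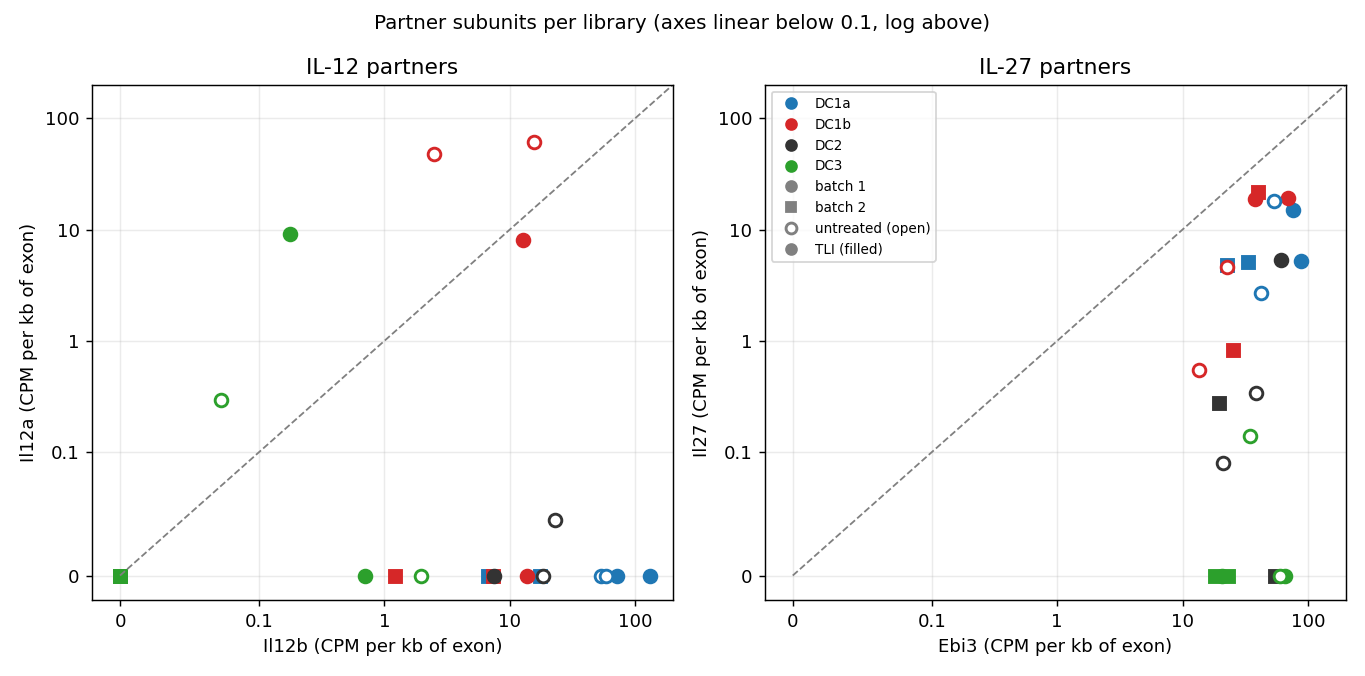
Il12a against Il12b (left) and Il27 against Ebi3 (right) in CPM per kb of exon, 1 point per library, with open symbols for untreated and filled symbols for TLI mice and a dashed line where both chains are equal. The DC1a libraries lie on the horizontal axis on the left, with 6.72 to 131 CPM per kb of Il12b and no Il12a, and all points on the right lie under the line.

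Log2 ratios were compared between TLI subsets with an exact two-sided permutation test, in which 0.5 counts were added to each gene. Of 24 tests 0 passed the threshold after Benjamini-Hochberg adjustment over the 24 and 7 were at an unadjusted p of 0.0286, the smallest value that 4 against 4 or 3 against 4 libraries allow. The adjusted p of these 7 was 0.098. The ratio of Il27 to Ebi3 was among them for DC3 against DC1a cells (a log2 difference of -7.78) and for DC3 against DC1b cells (-8.45), where every DC3 library had 0 counts of Il27. The other 5 were ratios of Il12a or Il23a to Il12b, in which the first chain was at or under the floor in most TLI libraries, so they carry mainly the level of Il12b.

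The untreated subsets were compared in 1 model over 8 libraries with edgeR's quasi-likelihood test, to ask which subunits differ between DC subsets at rest. Of 24 pairs of subunit and comparison 0 passed an adjusted p of 0.05, while 10 were at an unadjusted p under 0.05 and DESeq2's test called 7. The share of all tested genes that passed was 1.11% for DC1b against DC1a, 2.67% for DC2 against DC1a, 0.138% for DC3 against DC1a, 0.51% for DC2 against DC1b, 0.3% for DC3 against DC1b and 1.01% for DC3 against DC2. Over all 16676 genes and the same 6 comparisons, 14588 tests were at an unadjusted p under 0.05 and DESeq2's test called 10047. Il12a passed the filter on low counts in this fit only through the DC1b libraries, the group where it was high. Its p-values in this fit are therefore a description. Il12a in DC1b cells was at least 790.4-fold higher than in DC1a cells, counted against 3 counts per library, and its adjusted p was 0.0807 with edgeR. This value passed the threshold in the fit of 6 libraries without DC3 cells (adjusted p = 0.0406), without either DC3 library alone (adjusted p = 0.0424 and 0.0440), without the filter on low counts (adjusted p = 0.00278) and with DESeq2's test (adjusted p = 0.000662). It did not pass in the other 9 of 14 alternatives, among them the replicate block (adjusted p = 0.154), the fit of all 23 libraries (0.382) and the fits without any 1 of the DC1a, DC1b or DC2 libraries (0.114 to 0.393). Against DC2 cells, both at or under the floor, Il12a in DC1b cells was at least 727-fold higher (adjusted p = 0.123 with edgeR). Its mean was 371 times that of DC3 cells, of which 1 library had 0 counts (adjusted p = 0.187 with edgeR). The 7 calls of DESeq2's test were these 3, Il12b in DC3 against DC1a and DC2 cells, and Il27 in DC2 and DC3 against DC1a cells. For Il12b the mean of 111 ± 8.13 CPM in DC1a cells was 55.6 times that of DC3 cells (adjusted p = 0.291 with edgeR, 6.88e-05 with DESeq2) and 6.21 times that of DC1b cells (adjusted p = 0.418 with edgeR). For Ebi3 the DC1a mean of 55.1 ± 8.98 CPM was 2.65 times the DC1b mean of 20.8 ± 7.31 CPM (adjusted p = 0.261 with edgeR).

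Among the TLI subsets 2 of 18 pairs of subunit and comparison passed in a fit of 15 libraries with a term for batch, and 7 passed with DESeq2's test. Over all 16400 genes and the 6 comparisons, edgeR's test called 1224 and DESeq2's test called 7050. Il12a did not pass the filter on low counts in this fit. Il12b was lower in DC3 than in DC1a cells, with means of 0.432 ± 0.656 and 112 ± 113 CPM (SD, n = 4 each) and a fitted log2 difference of -8.96 ± 1.74 (SE, adjusted p = 0.0349 with edgeR). Il27 was lower in DC3 than in DC1b cells, at 0 counts against 15.4 ± 9.78 CPM (SD, n = 4), which is at least 141-fold lower (adjusted p = 0.0403 with edgeR). The groups did not overlap in either comparison, which is given as a description and not read as a result. All genes passed at shares of 0.634% for DC3 against DC1a and 1.02% for DC3 against DC1b. In the other 4 comparisons of TLI subsets, in which no subunit passed, the shares were 1.46% for DC1b against DC1a, 2.97% for DC2 against DC1a, 0.165% for DC2 against DC1b and 1.21% for DC3 against DC2. Il27 in DC3 against DC1a cells was at least 70.1-fold lower (adjusted p = 0.0735 with edgeR). Il12b in DC3 against DC1b cells had means 40.0 times apart (adjusted p = 0.0685 with edgeR). These 2 pairs were also without overlap, again as a description only.

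Both calls were lost when the pool entered as a replicate block (adjusted p = 0.0650 for Il12b and 0.0863 for Il27). Without a batch term the adjusted p was 0.340 and 0.0671. Within batch 1 alone Il12b was 231 times higher in DC1a than in DC3 cells (adjusted p = 0.276), and within batch 2 at least 259-fold higher (adjusted p = 0.257). Il27 in DC1b cells was at least 152-fold higher than in DC3 cells within batch 1 (adjusted p = 0.207) and at least 125-fold higher within batch 2 (adjusted p = 0.334), with 2 libraries per group. When each of the 15 libraries was left out in turn, the Il12b call was kept in 8 and the Il27 call in 3. The Il12b call was lost without any of the 4 DC1a libraries and without the DC3 library of pools 1, 3 or 4, at adjusted p of 0.0548 to 0.129. The Il27 call was kept without DC1b of pool 3 or DC2 of pool 1 or 3, and lost without any of the other 12 libraries at adjusted p of 0.0615 to 0.0954. Without the DC1b library of pool 4, which lacked Cd8a, the adjusted p were 0.0476 and 0.0638, and without the DC2 library of pool 3, which had little Sirpa, they were 0.0272 and 0.0182.

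TLI was compared with untreated mice within each subset in a fit of all 23 libraries with a term for batch. Since all untreated libraries are of batch 1, the fitted differences refer to that batch and can differ in size and sign from the ratio of group means. Of 16 pairs of subunit and subset 0 passed with edgeR's test, 2 were at an unadjusted p under 0.05 and DESeq2's test called 1. Among the 16 was Il12a in DC1a cells, which had 0 counts in both treatments and could not have passed. Of all genes 0.0102% passed edgeR's test in DC1a, 0.413% in DC1b, 0.0612% in DC2 and 0.0255% in DC3 cells. Over all 19597 genes and the 4 subsets, 8146 tests were at an unadjusted p under 0.05 and DESeq2's test called 3633. The widest gap was that of Il12a in DC1b cells, from 92.5 ± 15.5 CPM in untreated mice to 3.40 ± 6.80 CPM after TLI (SD, n = 2 and 4). The groups did not overlap, but the adjusted p was 0.690 with edgeR and 0.852 with DESeq2. It was 0.00465 in limma's fit with the pool as a random block. With 2 untreated libraries a lack of overlap was not read as a result in any of these comparisons. The pDC markers differed between the same groups, at 2383 and 2743 CPM in untreated and 54.5 to 157 CPM in TLI DC1b cells, and their part in this difference was not tested. Ebi3 in DC1b cells was at 20.8 ± 7.31 CPM in untreated and 49.9 ± 21.9 CPM in TLI mice, again without overlap (fitted log2 difference 1.74 ± 0.57, SE, adjusted p = 0.225 with edgeR and 0.0219 with DESeq2). Il12b in DC2 cells was at 40.6 ± 6.06 CPM in untreated mice and 4.88 ± 8.46 CPM after TLI (adjusted p = 0.594 with edgeR, 0.121 without TLI pool 1 and 0.711 without TLI pool 3). Its adjusted p was 0.0263 when only TLI pools 3 and 4, both at 0 counts, were set against untreated DC2 cells, a comparison in which batch and treatment cannot be told apart. In DC1a cells Il12b had means of 111 ± 8.13 CPM in untreated and 112 ± 113 CPM in TLI mice (SD, n = 2 and 4), but the TLI mean joins batches that differ. The TLI libraries of batch 1, the batch of all untreated libraries, had 258 and 141 CPM, both above the untreated values and on average 1.81 times their mean, and those of batch 2 averaged 23.8 CPM. The fitted log2 difference with the batch term was 1.55 ± 1.64 (SE, adjusted p = 0.800 with edgeR), and it was -2.28 with TLI of batch 2 only.

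Differences between subsets in the effect of TLI were tested as interactions in the same fit. Of 24 pairs 0 passed with edgeR's test, 4 were at an unadjusted p under 0.05 and DESeq2's test called 0. Over all 19597 genes and the 6 pairs of subsets, 8561 tests were at an unadjusted p under 0.05 and DESeq2's test called 3463. Il12a had 0 counts in every DC1a library, so its interactions against DC1a cells could not have passed edgeR's test. All genes passed at 0.0357% for DC1b against DC1a, 0.0255% for DC2 against DC1a, 0% for DC3 against DC1a, 0.122% for DC2 against DC1b, 0.0204% for DC3 against DC1b and 0.0357% for DC3 against DC2. The 3 at which subunits came nearest to the threshold were Ebi3 (adjusted p = 0.539) and Il27 (adjusted p = 0.546) in DC3 against DC1b cells and Il12b (adjusted p = 0.549) in DC2 against DC1b cells.

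Within the TLI libraries the batches differed in the subunits. The batch term called Il12b, which was lower in batch 2 (fitted log2 difference -4.32 ± 1.11, SE, adjusted p = 0.0182 with edgeR), and Ebi3, also lower (-1.08 ± 0.32, SE, adjusted p = 0.0327 with edgeR), while Il27 did not pass (-1.90 ± 1.17, SE, adjusted p = 0.294). Thus 2 of 3 tested subunits passed where 18.8% of all genes did. Ebi3 had a median of 75.6 CPM in the 7 libraries of batch 1 and 28.0 CPM in the 8 of batch 2, and without the filter on low counts its adjusted p was 0.118. Il12b had a median of 25.2 CPM in batch 1 and 1.20 CPM in batch 2. The batches were different pools of mice, so pool, batch and the erythroid and NK cell transcripts of batch 1 cannot be told apart.

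**Figure D3:**
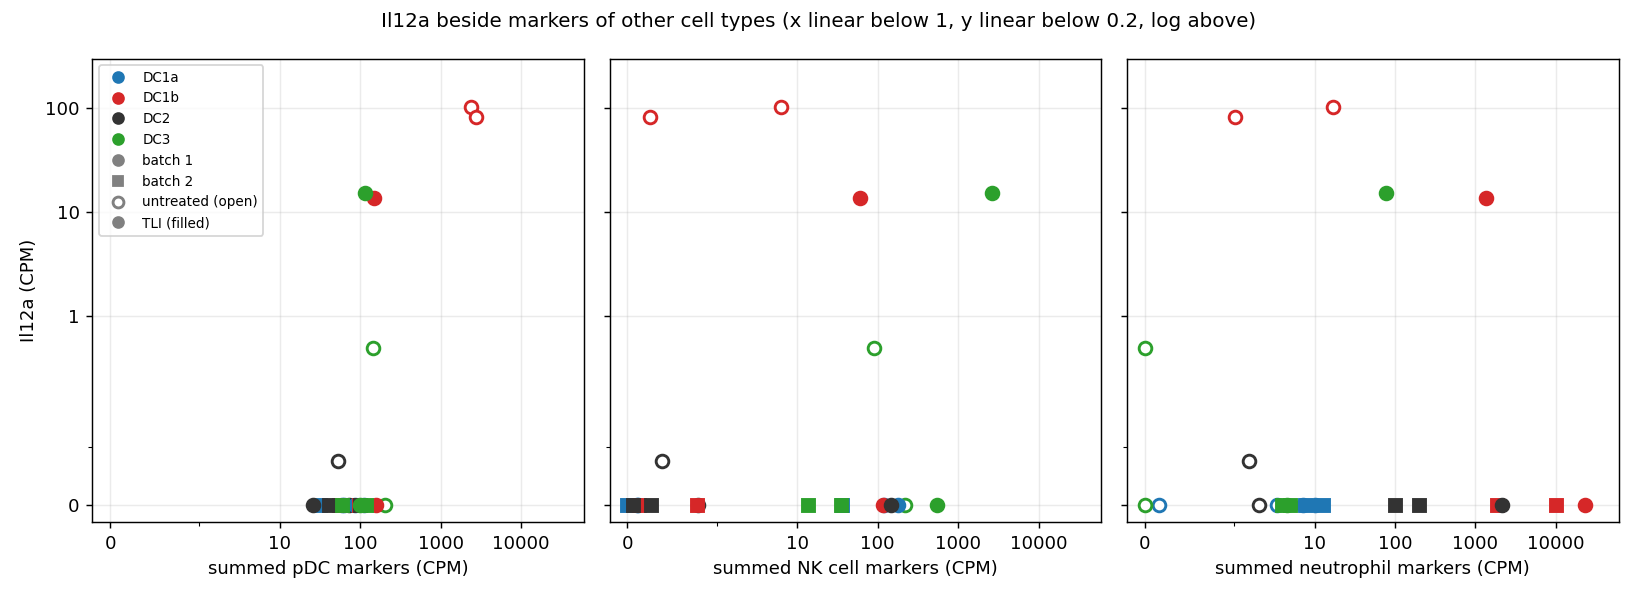
Il12a in CPM against the summed CPM of pDC (5 genes), NK cell (5 genes) and neutrophil (6 genes) markers, 1 point per library, open for untreated and filled for TLI mice. The 2 untreated DC1b libraries lie apart on the left at 2383 and 2743 CPM of pDC markers, and the DC3 library of TLI pool 1 lies farthest to the right in the middle at 2622 CPM of NK cell markers.

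For each subunit the 3 protein-coding genes with the most similar log2 CPM over the 23 libraries are named as a description, among 9024 genes compared. All points share the libraries' depth, batches and marker transcripts of other cell types. For Il12a these were Klk4 (Pearson r = 0.84), D13Ertd608e (r = 0.84) and Slco4a1 (r = 0.83). All 3 were concentrated in untreated DC1b cells, with means of 79.4, 422 and 94.8 CPM there and at most 4.23 CPM in any other group. For Il12b they were the chemokine receptor gene Ccr7 (r = 0.86), which guides DCs to lymph nodes, Gp2 (r = 0.85) and Snn (r = 0.84). Ccr7 had means of 443 and 621 CPM in untreated and TLI DC1a cells, of 455 and 28.4 CPM in DC2 cells and of 94.4 and 31.5 CPM in DC3 cells. For Il27 they were the ferritin light chain gene Ftl1 (r = 0.83), its near-identical copy Ftl1-ps1 (r = 0.82), whose reads may be shared with Ftl1, and Gp2 (r = 0.82). For Ebi3 they were Tinf2 (r = 0.76), Aldoa (r = 0.74) and Snx15 (r = 0.73). Of the 12 names 5 stayed in the top 3 with Spearman's rho and 2 with Pearson's r over the 8 group means, so most of the names depend on the measure.

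The genes around the subunits were taken from 7 lists. Of the 5 receptor chains of the family 3 were tested between untreated subsets, 4 between TLI subsets and 5 in TLI against untreated mice. With edgeR's test 0 pairs passed in each, and 4 of 18, 2 of 24 and 2 of 20 pairs were at an unadjusted p under 0.05. Over all genes such tests numbered 14588 (16676 genes in 6 comparisons), 12053 (16400 genes in 6) and 8146 (19597 genes in 4). Il12rb1, the receptor chain shared by IL-12 and IL-23, had group means of at most 0.67 CPM, and Il12rb2, the second chain of the IL-12 receptor, had 3.18 to 12.1 CPM. Il27ra, the receptor of IL-27, had its highest group means in DC3 cells (8.51 CPM untreated and 16.2 CPM after TLI). The DC3 libraries ranged from 0.665 to 16.4 CPM in untreated and from 0 to 36.6 CPM in TLI mice. Il6st, the signalling chain it pairs with, had means of 52.2 and 51.7 CPM in DC3 cells, with ranges of 8.41 to 96.1 and 27.3 to 79.6 CPM. The ranges of both genes overlapped those of other groups. NK cell markers reached 2622 CPM in TLI DC3 cells, and their part was not tested. Of 8 kinases and STATs downstream of the receptors 1 passed, Stat3, which was higher in untreated DC2 than DC1a cells (130.1 ± 10.8 against 33.8 ± 6.70 CPM, adjusted p = 0.0485 with edgeR and 0.0925 with the replicate block). The median log2 difference of the 8 genes in that comparison was 1.04, against 0.13 over all genes tested. It was the largest median of this list between subsets.

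Of the 14 transcription factors that act on the subunit promoters 4 passed between untreated subsets (7 pairs higher and 3 lower of 84) and 4 between TLI subsets (5 higher and 5 lower of 84). The list was chosen with results of these data known, and its counts are a description. Cebpb, a C/EBP family factor of myeloid cells, passed in 8 comparisons. It was at 3.62 ± 0.06 CPM in untreated DC1a cells, 38.6 ± 12.5 CPM in DC1b cells and 74.2 ± 5.23 CPM in DC2 cells. In TLI mice it was at 6.21 ± 5.82 CPM in DC1a and 279.8 ± 183 CPM in DC1b cells, a log2 difference of 6.23 ± 0.59 (SE, adjusted p = 0.000106 with edgeR). Cebpb was also the factor that passed between treatments, in DC1b cells (log2 difference 4.04 ± 0.67, SE, adjusted p = 0.0122 with edgeR), where neutrophil markers reached 1344 to 22779 CPM after TLI against 1.03 and 16.8 CPM in untreated mice. Their part in this difference was not tested.

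Irf8, which acts on the Il12b promoter and is required for cDC1 development, passed in 4 comparisons of TLI subsets. It was at 825 ± 140 CPM in DC1a cells and 834 ± 232 CPM in DC3 cells, against 225 ± 129 CPM in DC1b and 44.9 ± 21.2 CPM in DC2 cells. The Il12b means of TLI DC1a and DC3 cells were 259-fold apart, and the part of Irf8 in that difference was not tested. Rel, which encodes the kappaB factor c-Rel, was highest in untreated DC2 cells (1104 ± 137 CPM) and passed against each of the other untreated subsets. Batf3, required for cDC1 development, was at 40.1 ± 4.14 CPM in untreated DC1b cells and passed against DC1a (290.7 ± 45.3 CPM), DC2 (141 ± 23.1 CPM) and DC3 cells (254 ± 11.2 CPM). With the replicate block the adjusted p was 0.0335 for Batf3 between DC1b and DC1a cells, and 0.0524 to 0.0805 for the other untreated differences of Batf3 and Rel, which were lost. For Cebpb it was 0.0876 between untreated DC1b and DC1a cells and 0.0723 between untreated DC3 and DC2 cells, so these calls were lost too. The median log2 difference of the 14 genes between untreated DC2 and DC1a cells was 1.20, against 0.13 over all genes tested. It was the largest median of this list between subsets.

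Of 16 sensors and adaptors that trigger transcription of the family 3 passed between untreated subsets (2 pairs higher and 4 lower of 96). Between TLI subsets 5 passed (5 pairs higher and 8 lower of 96). In TLI against untreated mice 0 passed, and 7 of 64 pairs were at an unadjusted p under 0.05. Over all 19597 genes in the same 4 comparisons 8146 tests were, so such values were common and the 7 are not read as a result. Clec7a, the beta-glucan receptor Dectin-1, passed in 7 comparisons and was higher in DC1b and DC2 cells (318 ± 96.3 and 317 ± 69.1 CPM in TLI mice) than in DC1a and DC3 cells (22.7 ± 15.7 and 22.7 ± 17.8 CPM). Tlr3, the receptor of double-stranded RNA, passed in 5 comparisons and was at 2.89 ± 1.12 CPM in untreated and 2.1 ± 1.97 CPM in TLI DC2 cells, against 149.9 ± 29.8 and 270.1 ± 114 CPM in DC1a cells. Tlr11, the receptor of Toxoplasma profilin, passed in 3 comparisons of TLI subsets. It was at 236 ± 76.3 CPM in DC1a cells against 51.2 ± 15.4 CPM in DC1b and 20.4 ± 7.29 CPM in DC2 cells, and it was also higher in DC3 (121 ± 14.3 CPM) than in DC2 cells. Tlr8 passed in 2, with 30.0 ± 24.1 CPM in TLI DC1b cells against 0.036 ± 0.072 CPM in DC3 cells. With the replicate block both Tlr8 calls were lost (adjusted p = 0.0627 and 0.0783), as were 2 of the Tlr3 calls (0.0869 and 0.0699) and 4 of the Clec7a calls (0.0542 to 0.0843). The median log2 difference of the 16 genes between TLI DC2 and DC1a cells was 0.61, against -0.02 over all genes tested. In that comparison 2 genes passed as higher and 2 as lower. Medians of this list varied with the comparison, and that of TLI DC3 against DC2 cells was -1.47, against 0.02 over all genes.

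**Figure D4:**
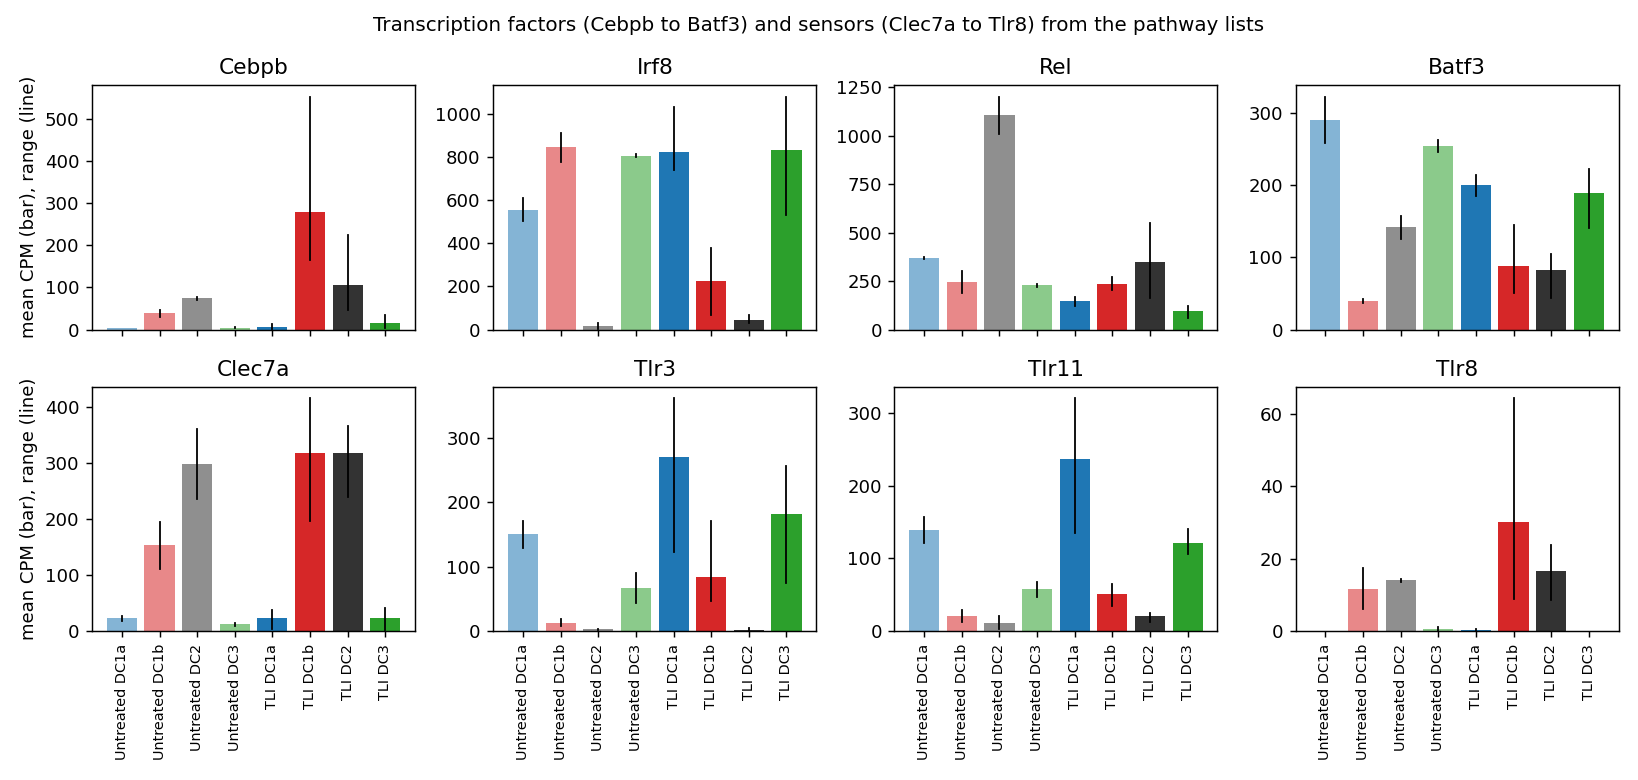
Mean CPM (bars) and range over libraries (lines) of 4 transcription factors and 4 sensors from the pathway lists in the 8 groups, paler bars for untreated mice. Irf8 is about as high in TLI DC3 (834 CPM) as in TLI DC1a cells (825 CPM), and Cebpb reaches its highest mean in TLI DC1b cells (279.8 CPM).

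Of 10 inhibitors of production or signalling 2 passed between TLI subsets, in 1 pair higher and 1 lower of 60, and none between untreated subsets (15 of 60 pairs at an unadjusted p under 0.05). Bcl6, a transcriptional repressor, was higher in TLI DC1b than TLI DC1a cells (100.4 ± 86.7 against 30.4 ± 23.9 CPM, adjusted p = 0.00585 with edgeR), groups that also differed in neutrophil markers (1344 to 22779 against 7.20 to 12.9 CPM), whose part was not tested. Il10ra, a chain of the IL-10 receptor, was lower in TLI DC3 than TLI DC1b cells (52.4 ± 28.0 against 124 ± 30.9 CPM, adjusted p = 0.0268 with edgeR). Il10 itself had group means of at most 4.00 CPM. Of 9 chaperones of the endoplasmic reticulum, where the dimers are folded, Hsp90b1 was higher in untreated DC3 than DC2 cells (850.3 ± 107 against 276 ± 45.2 CPM, adjusted p = 0.0440 with edgeR and 0.0794 with the replicate block), and Pdia3 was lower in TLI DC2 than DC1a cells (123 ± 86.1 against 617 ± 441 CPM, adjusted p = 0.0475 with edgeR). Of 11 related cytokines and soluble receptors 1 passed, Il6ra, the IL-6 receptor, which was higher in TLI DC2 than DC1a cells (127.9 ± 30.7 against 16.1 ± 8.37 CPM, adjusted p = 0.00790 with edgeR). Only 6 of the 11 genes were tested there, and their median log2 difference was 1.3, against -0.02 over all genes. All of these shares of calls are to be read beside the 0.138% to 2.97% of all genes that passed in a comparison of subsets. The 15 of 60 pairs at an unadjusted p under 0.05 are to be read beside 14588 such tests over 16676 genes in 6 comparisons.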

How the data were processed

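RNA was extracted from sorted spleen DCs and amplified with a SMART-seq kit that does not mark strand. The authors trimmed reads with Trimmomatic, aligned them to GRCm38 with HISAT2 and deposited estimated counts per gene (expected counts) from StringTie coverage. These were used as whole numbers. Gene positions and exon lengths were taken from GENCODE M21. Counts were scaled with TMM in edgeR 4.0.16 (R 4.3.3), low genes were removed with filterByExpr, and the quasi-likelihood test was used with Benjamini-Hochberg adjustment over all genes (threshold 0.05). This left 16676 genes among untreated, 16400 among TLI and 19597 among all libraries. DESeq2 1.42.0 and limma 3.58.1 gave alternatives. The scripts were tested on simulated data. Replicates are pools of mice, and the pool numbers in the labels pair subsets of a pool. Residual correlations within pools were -0.0058 to 0.0159 over 12 untreated pairs and -0.162 to 0.0673 over 21 TLI pairs. With 2 libraries per group the residuals of the 2 untreated pools mirror each other. Each untreated value therefore occurs in both pools, and the 12 are not independent. All 5 subunits were described in every comparison. From each list up to 4 genes with the most calls were named, and for each subunit averaging at least 1 CPM the 3 genes of highest Pearson r. The genes and lists were chosen with earlier results of these data known.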

Additional observations from a re-analysis of the deposited data

Results flagged for a closer look

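In 10 sets of 4 libraries (a subunit in a TLI subset) the highest or lowest library was compared with the rest, and 5 sets had a library far from the others. Chance gives about 1 in 20 such sets for normally spread values, which does not hold for the 2 sets of Il12a, where 3 libraries are at 0 and any value above 0 in the other stands apart, so no excess over chance is read from the count. Il12a was at 13.6 CPM in TLI DC1b of pool 2 and at 15.4 CPM in TLI DC3 of pool 1, with 0 counts in the other 3 libraries of each group. Il27 was at 15.2 CPM in TLI DC1a of pool 2, above the others of its group (4.89 to 5.30 CPM), and at 0.838 CPM in TLI DC1b of pool 3, below the others (19.1 to 22.1 CPM). Ebi3 was at 75.6 CPM in TLI DC3 of pool 2, against 21.1 to 26.8 CPM in the others. These libraries do not share a pool or subset throughout, and the cause was not tested.

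The effect of TLI on Bcl6, a transcriptional repressor among the listed inhibitors, differed between subsets by the interaction term of edgeR's fit. The log2 difference of the effect was 2.90 for DC1b against DC1a cells (adjusted p = 0.0400) and -2.79 for DC2 against DC1b cells (adjusted p = 0.0297). Bcl6 in DC1b cells was at 13.3 and 18.8 CPM in untreated mice and between 28.4 and 204 CPM, with a mean of 100.4 CPM, in TLI mice. Neutrophil markers in the same groups were at 1.03 and 16.8 CPM and at 1344 to 22779 CPM, and macrophage markers at 75.2 and 107 CPM and at 217 to 2103 CPM. Their part in the difference was not tested.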

How the results depend on the processing

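Between untreated subsets the 0 calls of subunits became 3 without the filter on low counts, 7 with DESeq2's test and 1 in the fit of 6 libraries, and 0 to 1 when 1 library was left out. Between TLI subsets the 2 calls became 6 without the filter, 7 with DESeq2's test, 4 in the fit of all 23 libraries, and 0 without a batch term, within batch 1 and within batch 2, and 0 to 4 when 1 library was left out. With the pool as a replicate block they became 0, while the untreated count stayed at 0. In TLI against untreated mice the 0 calls became 1 with DESeq2's test (Ebi3 in DC1b cells), 1 with the pool as a random replicate block (Il12a in DC1b cells) and 1 with TLI of batch 2 only (Il12b in DC2 cells), an alternative chosen after seeing the data, and stayed at 0 when 1 library was left out. Interactions gave 0 calls under every alternative run. The ratio tests also gave 0, which says nothing about their stability, since 14 of the 24 would have had to reach the smallest possible p to pass adjustment. Of 85 pairs of subunit and comparison 28 changed sign under 1 or more alternatives, none of them at an unadjusted p under 0.05 (edgeR's lowest adjusted p among them was 0.402). Il12b in DC1a cells, TLI against untreated, was one, with a log2 difference of -2.28 for TLI of batch 2 only. Il12a in the same comparison was another, but it had 0 counts in both treatments, so its sign has no meaning. Over all genes and comparisons the calls between untreated subsets were 957 with edgeR, 10047 with DESeq2, 2234 without the filter and 296 with the replicate block. Between TLI subsets they were 1224, and 7050 with DESeq2, 1873 without the filter, 664 without a batch term, 18 within batch 1 and 508 within batch 2. In TLI against untreated mice they were 100, and 3633 with DESeq2, 330 without the filter, 1053 with the random replicate block, 28 without a batch term, 15 in batch 1 and 1436 with TLI of batch 2 only. Except where a setting uses fewer libraries, the cause of these changes was not tested. Depth limits statements on Il23a and on subunits at 0 to 0.0861 to 0.147 CPM at best, the floors of the libraries. These floors, and the folds counted against them, cover counting error only, since amplified reads are not independent molecules.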
